A study of Mus musculus with 8 samples.

Results

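The radial glia and astroglial marker genes examined here are Fabp7, Nes, Gfap, S100b, Slc1a3, Slc1a2, Glul, Aqp4, Msi1, and Msi2, 10 of the 24354 genes in the expression table. They were found in the table by symbol, and the set was put together with earlier results of these data known. RNA sequencing was performed on 8 libraries, with 2 libraries in each of 4 groups of mouse cells. Embryonic stem cells (ESCs) were the wild-type E14 line in serum medium with LIF. Neural stem cells (NSCs) carried the OG2 transgene, a GFP reporter under the distal enhancer of Oct4, and the ROSA26 lacZ transgene, each heterozygous (OG2+/-/ROSA26+/-), and were kept on gelatin with EGF and FGF2. Extended pluripotent stem cells (EPSCs), which are derived from eight-cell embryos, were wild-type C57BL/6 line 1 at passage 15 in N2B27-LCDM medium, in which LIF, CHIR99021, dimethindene maleate, and minocycline hydrochloride are added. EPSC-NSC hybrid cells were tetraploid line 2-2 at passage 10, made by fusing EPSCs to NSCs with polyethylene glycol and kept in the EPSC medium. Hybrid colonies were recognized by the Oct4-GFP reporter, so they were selected for reactivation of Oct4. ESCs, EPSCs, and hybrid cells grew on inactivated C3H mouse embryonic fibroblasts, whereas NSCs did not. Each group was 1 cell line, so the spread between its 2 libraries may be technical and does not cover independent derivations or fusions.

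Radial glia are the progenitor cells of the developing neural tube, and cultured NSCs share many of their genes. Fabp7 (BLBP) is a fatty acid binding protein of radial glia, and Nes encodes nestin, an intermediate filament protein of neural progenitors. Gfap is the intermediate filament protein of astrocytes, and S100b is a calcium-binding protein that is used as an astrocyte marker. Slc1a3 (GLAST) and Slc1a2 (GLT-1) are the glial transporters that clear glutamate, Glul encodes glutamine synthetase, which converts glutamate to glutamine, and Aqp4 is the water channel of astrocyte endfeet. Msi1 and Msi2 are the Musashi RNA-binding proteins, which regulate translation in stem and progenitor cells. Several of these genes, Glul and Msi2 among them, are known to be expressed outside the nervous system.

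Upstream sequences are shown because the level of the markers in pluripotent cells ranged from 0 to about 80 FPKM (fragments per kilobase of transcript, scaled to the mapped fragments of the library), and their promoters differed widely in CpG dinucleotides, the sites at which mammalian DNA is methylated. RefSeq start sites of GRCm38.p6 were found for 8 of the 10 genes. Aqp4 and Msi1 are annotated genes as well, but the promoter set used here held no sequence for them. The 250 bases before the start site are given 5′ to 3′ on the strand of the gene, with each CpG in capitals.
Fabp7 (chr10:57784673-57784922, plus strand): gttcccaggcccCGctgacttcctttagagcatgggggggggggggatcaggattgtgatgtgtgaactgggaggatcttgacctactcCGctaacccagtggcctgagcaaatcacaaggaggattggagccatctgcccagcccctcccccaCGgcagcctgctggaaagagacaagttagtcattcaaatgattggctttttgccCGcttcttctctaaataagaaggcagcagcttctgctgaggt
Gfap (chr11:102897201-102897450, minus strand): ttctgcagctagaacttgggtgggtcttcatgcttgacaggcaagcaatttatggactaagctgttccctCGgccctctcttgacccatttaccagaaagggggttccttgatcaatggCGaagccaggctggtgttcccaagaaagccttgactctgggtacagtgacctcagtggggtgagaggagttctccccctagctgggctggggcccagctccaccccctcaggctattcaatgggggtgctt
Slc1a3 (chr15:8710808-8711057, minus strand): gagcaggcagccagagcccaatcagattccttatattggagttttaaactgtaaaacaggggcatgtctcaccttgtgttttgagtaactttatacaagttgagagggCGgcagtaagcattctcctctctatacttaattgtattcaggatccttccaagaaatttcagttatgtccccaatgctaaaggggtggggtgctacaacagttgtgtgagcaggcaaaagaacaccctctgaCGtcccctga
Nes (chr3:87970843-87971092, plus strand): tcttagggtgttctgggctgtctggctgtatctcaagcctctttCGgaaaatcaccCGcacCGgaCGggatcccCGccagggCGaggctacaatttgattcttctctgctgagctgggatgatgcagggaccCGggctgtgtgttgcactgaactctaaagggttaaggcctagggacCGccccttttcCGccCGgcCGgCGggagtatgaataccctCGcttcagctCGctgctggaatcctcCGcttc
Msi2 (chr11:88718278-88718527, minus strand): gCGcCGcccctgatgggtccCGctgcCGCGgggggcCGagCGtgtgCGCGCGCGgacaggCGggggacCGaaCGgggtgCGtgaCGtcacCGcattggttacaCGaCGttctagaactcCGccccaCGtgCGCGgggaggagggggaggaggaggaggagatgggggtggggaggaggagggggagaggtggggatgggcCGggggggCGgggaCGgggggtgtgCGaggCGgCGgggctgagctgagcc
In these windows, Fabp7 held 4 CpG, Gfap and Slc1a3 held 2 each, Nes held 15, and Msi2 held 29. S100b held 2, Slc1a2 held 1, and Glul held 15. Over the 32851 RefSeq promoters of the same length, the median was 6 CpG and the quartiles were 2 and 16. For Slc1a2, the window precedes an internal start site at 102706438 and not the first base of the gene. For Msi2, the window of start site 1 of 3 is shown. It precedes position 88718277, which also lies inside the gene, and the windows of sites 2 and 3 held 29 and 30 CpG. The 3 genes with 15 or more CpG, Nes, Glul, and Msi2, were all above 2 FPKM in every library. Of the 5 genes with 4 or fewer, Fabp7, Gfap, S100b, and Slc1a2 stayed under 0.3 FPKM in every library that was not of NSCs, and Slc1a3 did not. Slc1a2 is placed here by the window of its internal start site, and the bases before the first base of that gene were not counted. This is a description of 8 genes, DNA methylation was not measured, and no link between CpG and level was tested.

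In a search of both strands, the RBPJ motif TGGGAA, the site of the Notch effector, lay in the windows of Fabp7, Gfap, and S100b, and 21.6% of all promoters held it. The NFI half-site TTGGCA lay in that of S100b (12.3% of promoters), and the STAT motif TTCNNNGAA (7.02%) and TATAAA (12.4%) lay in that of Slc1a3. The E-box CANNTG lay in 6 of the 8 windows and in 66.2% of promoters. The SOX motif ACAATG (10.7%) and the octamer ATGCAAAT (1.60%) lay in none of the 8. No match overlapped one of another motif. A match is a description of the letters and was not tested for binding.

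All 10 markers had their highest mean in NSCs, and all 10 passed the filter of the test, a mean of at least 1 FPKM in at least 1 group. Fabp7, Gfap, S100b, Slc1a2, and Aqp4 passed it through NSCs alone, so these 5 had to differ, and counts over the 10 genes are given as a description. In bulk libraries, a lower level in fewer cells and less RNA per cell cannot be told apart.

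**Figure D1:**
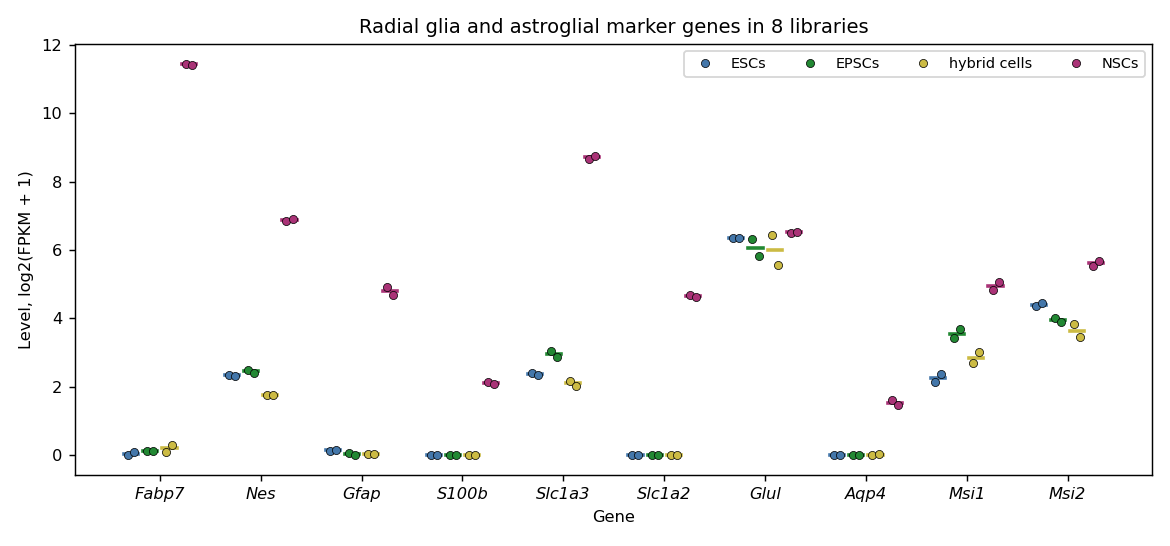
Level of each marker gene as log2(FPKM + 1) in ESCs, EPSCs, hybrid cells, and NSCs. Each point is 1 library and each bar the mean of the 2 libraries of a group. NSCs lie above the other groups in every gene, by the widest gap in Fabp7 and by little in Glul, where the 4 groups lie close together.

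Fabp7, which lies at chr10:57784923-57788450, was the most abundant marker. It was listed at 2798 and 2709 FPKM in the NSC libraries, the third highest mean of all genes in these cells. In the other libraries it was at 0 and 0.0569 FPKM in ESCs, 0.0828 and 0.0788 FPKM in EPSCs, and 0.0761 and 0.238 FPKM in hybrid cells. The steps between the low values correspond to 1 and 3 fragments in the hybrid cell libraries, 1 and 1 in EPSCs, and 0 and 1 in ESCs, against about 44365 and 43330 in NSCs. Hybrid cells thus held the RNA at the limit of counting, and their 2 libraries overlapped those of EPSCs. The mean in hybrid cells was 0.00571% of that in NSCs.

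Nes (chr3:87971093-87980451) was at 114 and 120 FPKM in NSCs. It was at 4.06 and 4.03 FPKM in ESCs, 4.63 and 4.30 FPKM in EPSCs, and 2.41 and 2.38 FPKM in hybrid cells. Unlike Fabp7, Nes was therefore measurable in every library, and both hybrid cell libraries were below all the others. The hybrid cell mean was 2.05% of the NSC mean, and the EPSC mean was 3.82% of it.

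Among the astrocyte markers, Gfap (chr11:102887336-102897200) was at 29.2 and 24.8 FPKM in NSCs. It was at 0.0852 and 0.120 FPKM in ESCs, 0.0360 and 0 FPKM in EPSCs, and 0.0174 and 0.0175 FPKM in hybrid cells. By the steps of the values, the latter were 1 fragment in each hybrid cell library and 2 and 0 in the EPSC libraries, compared with 7 and 9 in ESCs and about 2097 and 1797 in NSCs. S100b (chr10:76253836-76261319) was listed at 3.40 and 3.24 FPKM in NSCs and at 0 in the other 6 libraries. Aqp4 (chr18:15389394-15410982) was the lowest of the markers in NSCs, at 2.03 and 1.78 FPKM. In the other 6 libraries it did not exceed 0.0180 FPKM, which was reached in 1 hybrid cell library, and it was at 0 in 4 of them. The astrocyte markers were thus detected in NSCs at levels far below those of Fabp7, and hybrid cells had no library above 0.0180 FPKM for any of the 3 genes.

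The 2 glial glutamate transporters differed in level. Slc1a3 (chr15:8634124-8710807) was at 404 and 431 FPKM in NSCs, and it ranked 121st among all genes there. It was at 4.32 and 4.06 FPKM in ESCs, 7.21 and 6.26 FPKM in EPSCs, and 3.47 and 3.09 FPKM in hybrid cells. Slc1a2 (chr2:102658239-102790784) was at 24.7 and 23.6 FPKM in NSCs and did not exceed 0.0115 FPKM elsewhere. FPKM is per length, so the levels of the genes can be set beside each other, and Slc1a3 was 16.4 and 18.2 times Slc1a2 in the 2 NSC libraries. Only Slc1a3 of the 2 transporters remained above 1 FPKM outside NSCs, and its hybrid cell libraries were below the libraries of every other group.

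Glul (chr1:153899929-153909723), which acts on the glutamate that these transporters take up, was high in all groups. It was at 79.9 and 80.8 FPKM in ESCs, 78.8 and 55.4 FPKM in EPSCs, 85.5 and 46.4 FPKM in hybrid cells, and 89.7 and 91.3 FPKM in NSCs. The NSC libraries were above the other 6, and the spread within EPSCs (67.1 ± 16.5 FPKM, SD, n = 2) and hybrid cells (65.9 ± 27.6 FPKM, SD, n = 2) was wider than in ESCs and NSCs.

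Both Musashi genes were expressed in every library. Msi1 (chr5:115359059-115455698) was at 27.6 and 32.2 FPKM in NSCs, 9.78 and 11.9 FPKM in EPSCs, 5.43 and 7.06 FPKM in hybrid cells, and 3.37 and 4.18 FPKM in ESCs. The libraries of the 4 groups did not overlap for Msi1. Msi2 (chr11:88339382-88718306) was at 45.3 and 50.1 FPKM in NSCs, 19.6 and 20.7 FPKM in ESCs, 15.2 and 13.999 FPKM in EPSCs, and 13.2 and 9.96 FPKM in hybrid cells. The 2 genes were ordered differently among the pluripotent groups, with ESCs lowest for Msi1 and highest for Msi2. The ratio of Msi1 to Msi2 was 0.172 and 0.202 in ESCs, 0.645 and 0.848 in EPSCs, 0.410 and 0.709 in hybrid cells, and 0.610 and 0.641 in NSCs. With 2 libraries against 2, an exact permutation test cannot give a two-sided p below 0.333, so these ratios are a description. The 2 paralogs share sequence, and how fragments that fit both were assigned is not given in the sources used here.

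Annotated noncoding RNAs overlap Aqp4, Msi1, Slc1a2, and Msi2. The libraries were prepared with a stranded kit, but the strand setting of the quantification is not given in the sources used here, so fragments of these RNAs may be included. All positions above are those of RefSeq genes in GRCm38.p6, the assembly that mm10 represents.

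Hybrid cells were compared with NSCs to determine how much of the radial glia and astroglial expression of the somatic parent was present after fusion. The markers were lower in hybrid cells, from Fabp7 at the high end to Aqp4 at the low end, except that Glul did not pass the test. limma on log2(FPKM + 1), adjusted by Benjamini-Hochberg over the 13239 genes tested, called 9 of the 10 markers lower with a change over 2-fold, compared with 23.9% of all genes tested. The log2 fold change was -6.61 for Slc1a3 (SE 0.09, adjusted p = 1.7e-09) and -5.11 for Nes (SE 0.07, adjusted p = 1.8e-09). For the 5 genes that passed the filter through NSCs alone, it is a description, at -11.22 for Fabp7, -4.78 for Gfap, -4.65 for Slc1a2, -2.11 for S100b, and -1.53 for Aqp4. On this scale the added 1 bounds the change of genes near 0, and with 0.1 added instead, Fabp7 gave -13.46 and Aqp4 gave -4.21. Msi1 was lower by a log2 value of -2.10 (SE 0.15, adjusted p = 4.9e-06) and Msi2 by -1.96 (SE 0.12, adjusted p = 2.1e-06), which left hybrid cells at 20.9% and 24.3% of the NSC level. These 2 RNA-binding proteins kept the largest share of the NSC level after Glul. By the rule of the methods of the study, read as a mean over 3 FPKM in the higher group and a ratio over 3, 8 of the 10 markers were lower in hybrid cells, compared with 16.3% of all genes. Aqp4 stayed under 3 FPKM and Glul under the ratio. With the mean taken over both groups, a reading added after the data were seen, 7 passed, without S100b, and 1854 of the 13239 genes tested were lower by this reading.

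Glul had a log2 fold change of -0.52 (SE 0.27, adjusted p = 0.104) in hybrid cells against NSCs. The call depended on the scaling and on 1 library. FPKM summed to between 415240 and 653796 per library, with the lowest sums in NSCs, and scaling all libraries to a common sum gave -1.14 (adjusted p = 0.00307) for Glul. The median of all genes tested moved from 0.06 to -0.51 with this scaling, and relative to the median, Glul changed by -0.57 before and -0.63 after it. Quantile normalization, under which that median was 0.07, gave -0.87 (adjusted p = 0.0126), or -0.94 relative to the median. Without hybrid cell library 1, the value was -0.95 (adjusted p = 0.00253). Glul lay lower in hybrid cells than in NSCs under all 15 alternatives, and its adjusted p ranged from 0.00253 to 0.682.

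**Figure D2:**
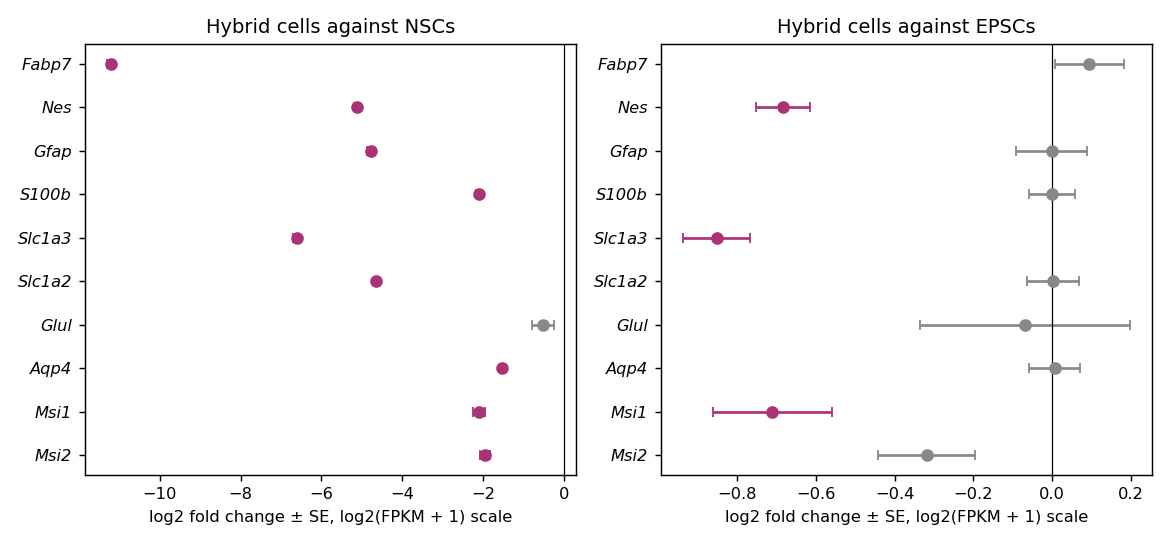
The log2 fold change of each marker in hybrid cells against NSCs (left) and against EPSCs (right), on the log2(FPKM + 1) scale with the standard error of limma as bars. Colored points have an adjusted p under 0.05 and gray points do not; 9 genes pass on the left and Nes, Slc1a3, and Msi1 pass on the right, where the axis is narrower.

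The pluripotent groups were compared with NSCs in the same way, and again Glul was the marker that did not pass. In EPSCs, 9 of the 10 markers were over 2-fold lower than in NSCs, compared with 23.9% of all genes tested, and in ESCs the count was also 9, compared with 23.6%. The 3 comparisons share the NSC libraries and are therefore not independent. For Glul, the log2 fold change was -0.45 (adjusted p = 0.150) in EPSCs and -0.17 (adjusted p = 0.567) in ESCs. Scaling to a common sum gave -1.06 (adjusted p = 0.00444) and -0.72 (adjusted p = 0.0272), and quantile normalization gave -0.82 (adjusted p = 0.0160) and -0.47 (adjusted p = 0.115).

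Hybrid cells were next compared with EPSCs, the pluripotent parent, to determine whether any marker was held above the EPSC level. No marker was called higher. limma called 3 of the 10 markers, Nes, Slc1a3, and Msi1, and all 3 were lower in hybrid cells, compared with 21.9% of all genes tested that were called lower. Nes had a log2 fold change of -0.68 (SE 0.07, adjusted p = 0.000488), Slc1a3 of -0.85 (SE 0.09, adjusted p = 0.000479), and Msi1 of -0.71 (SE 0.15, adjusted p = 0.00840). In FPKM, the mean in hybrid cells was 0.537 times that in EPSCs for Nes, 0.487 times for Slc1a3, and 0.577 times for Msi1. For each of these 3 genes, both hybrid cell libraries lay below both EPSC libraries, and the gene kept its call under all 15 alternatives. Called higher were 0 of the 10 markers by limma, also 0 at an unadjusted p under 0.05, compared with 22.5% of all genes tested. By the rule of the methods, 0 of 10 differed between hybrid cells and EPSCs, compared with 1.59% of all genes tested. Fabp7, Gfap, S100b, Slc1a2, and Aqp4 were at or near 0 in both groups and could not pass this rule. The counts over the 10 markers against EPSCs are therefore a description, and the shares of all genes are not a like comparison.

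Msi2 was also lower in both hybrid cell libraries than in either EPSC library, but its log2 fold change of -0.32 (SE 0.12, adjusted p = 0.0711) did not pass. Without hybrid cell library 1, it was -0.51 (adjusted p = 0.00692). Fabp7 gave 0.09 (SE 0.09, adjusted p = 0.419), and Gfap, S100b, Slc1a2, and Aqp4 each lay within 0.01 of 0, because both groups were at or near 0. For Fabp7 and Gfap, the values in both groups came from few fragments, and Slc1a2 and Aqp4 did not exceed 0.0180 FPKM in either, so a difference was not detectable at this depth. Glul gave -0.07 (SE 0.27, adjusted p = 0.860), and its sign rested on single libraries, with 0.37 without hybrid cell library 2, 0.18 without EPSC library 1, and a lowest value of -0.50 among the alternatives, none of which passed the test.

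**Figure D3:**
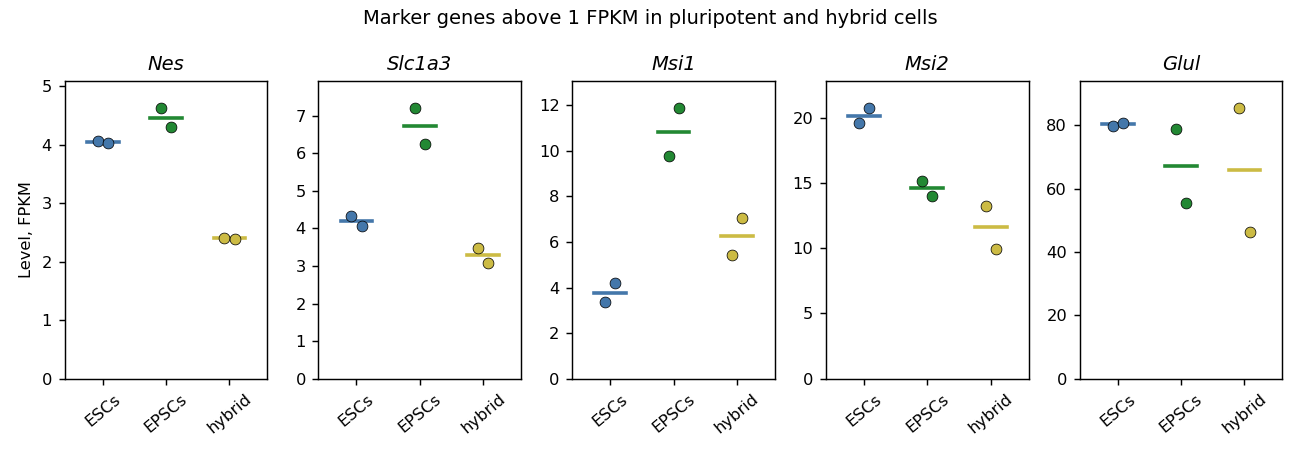
FPKM of the 5 markers above 1 FPKM in pluripotent and hybrid cells, on axes that start at 0. Points are libraries and bars are group means; Nes and Slc1a3 are lowest in hybrid cells, Msi1 is highest in EPSCs, and the libraries of Glul are spread widely in EPSCs and hybrid cells.

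Fibroblast genes differed between these groups as well. All 12 genes of a fibroblast list were called higher in hybrid cells than in EPSCs, compared with 22.5% of all genes tested. After scaling to a common sum or quantile normalization, 11 were called, without Twist1. Their summed level was 232 to 311 FPKM in hybrid cells, 80.6 to 81.4 FPKM in EPSCs, 14.7 to 15.9 FPKM in ESCs, and 11.5 to 12.9 FPKM in NSCs, and Col1a2, a collagen gene, was the highest of them in hybrid cells at 57.7 FPKM. Pluripotency genes were called higher for 2 and lower for 3 of 10, near the shares of all genes tested (22.5% and 21.9%), and Pou5f1 (Oct4), named after its values were seen, was at 869 ± 112 FPKM (SD, n = 2) in EPSCs and 875 ± 189 FPKM (SD, n = 2) in hybrid cells. The part of the fibroblasts in the lower Nes, Slc1a3, and Msi1 was not tested.

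EPSCs and ESCs were compared to place these levels within pluripotent cells. limma called 3 of the 10 markers, compared with 61.0% of all genes tested. Fabp7, Gfap, S100b, Slc1a2, and Aqp4 were at or near 0 in ESCs, EPSCs, and hybrid cells. Counts over the 10 markers among these groups are therefore a description and not a like comparison with all genes. Msi1 was higher in EPSCs by a log2 value of 1.31 (SE 0.15, adjusted p = 0.000291), a 2.87-fold higher mean FPKM, and Slc1a3 was higher by 0.57 (SE 0.09, adjusted p = 0.000950). Msi2 was lower by -0.44 (SE 0.12, adjusted p = 0.0162), and this call was lost without ESC library 1 (adjusted p = 0.0575), ESC library 2 (0.0916), or EPSC library 2 (0.0751). Nes gave 0.11 (SE 0.07, adjusted p = 0.185). Between hybrid cells and ESCs, a comparison added after the data were seen, limma called 4 of the 10 markers, compared with 65.5% of all genes tested. Nes (-0.57, adjusted p = 0.000279), Msi2 (-0.76, adjusted p = 0.00115), and Slc1a3 (-0.28, adjusted p = 0.0221) were lower in hybrid cells, and Msi1 (0.60, adjusted p = 0.0100) was higher. Slc1a3 lost this call in 6 alternatives, with an adjusted p of up to 0.120, and Msi1 lost it without ESC library 1 (adjusted p = 0.0770).

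These tests give the order of the levels. For Nes, NSCs were followed by EPSCs and ESCs, whose libraries did not overlap but whose difference did not pass the test, and then by hybrid cells. For Slc1a3, the order was NSCs, EPSCs, ESCs, and hybrid cells, with the last step resting on the call described above. For Msi1, it was NSCs, EPSCs, hybrid cells, and ESCs, with every neighboring pair called. For Msi2, it was NSCs, ESCs, EPSCs, and hybrid cells, and the last pair did not pass the test. Msi1 was thus the only marker whose hybrid cell level lay between those of ESCs and EPSCs with both differences called in the main fit.

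The place of hybrid cells between their parents was expressed on the log2(FPKM + 1) scale, with 0 at the NSC mean and 1 at the EPSC mean. The 9 markers other than Glul lay between 0.992 and 1.51, with a median of 1.00. Fabp7, Gfap, S100b, Slc1a2, and Aqp4 passed the filter through NSCs alone, so their means in hybrid cells and EPSCs had to be under 1 FPKM. This favors positions near 1, and the median over the 9 is a description only. Msi1 was at 1.51 and Nes and Slc1a3 both at 1.15, that is, beyond the EPSC parent. Msi2 was at 1.19, with 1.08 and 1.31 in the 2 hybrid cell libraries, and its difference from EPSCs did not pass the test. Over the 3159 genes called over 2-fold lower in EPSCs than in NSCs, the median was 0.973 and the quartiles were 0.856 and 1.05. As another reference, the mean of the parental FPKM was 60.6 for Nes and 212.3 for Slc1a3, 25.3 and 64.7 times the hybrid cell means. For Msi1 and Msi2, it was 20.4 and 31.2 FPKM, 3.26 and 2.69 times the hybrid cell means.

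The other genes of radial glia, a list of 20, gave the setting of these markers. In hybrid cells against NSCs, 16 of the 20 were called lower, 13 of them over 2-fold, and 2 were called higher. Of all genes tested, 42.0% were called lower, 23.9% over 2-fold, and 44.5% were called higher. After scaling to a common sum, 18 were lower and 0 were higher. The median of all genes tested moved from 0.06 to -0.51 with this scaling, and the shares above are for FPKM as deposited. Vim, which encodes vimentin, the filament partner of nestin, was at 1011 ± 48.8 FPKM (SD, n = 2) in NSCs and 599.7 ± 78.9 FPKM in hybrid cells. The size of its log2 fold change depended on the scaling. It was -0.76 in FPKM as deposited, -1.38 after scaling to a common sum, and -2.18 after quantile normalization. Ptprz1, a receptor phosphatase of radial glia, was at 271.9 FPKM in NSCs and 0.208 FPKM in hybrid cells. Tnc, which encodes the matrix protein tenascin C, was at 264.3 and 65.1 FPKM, and Ednrb, the endothelin B receptor, at 124.6 and 0.149 FPKM. Sox2, a transcription factor shared by pluripotent and neural stem cells, was at 164 FPKM in hybrid cells and 118 FPKM in NSCs, and was called higher (0.47, adjusted p = 0.000274) in FPKM as deposited but gave -0.14 (adjusted p = 0.0849) after scaling to a common sum and -0.05 (adjusted p = 0.501) after quantile normalization.

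**Figure D4:**
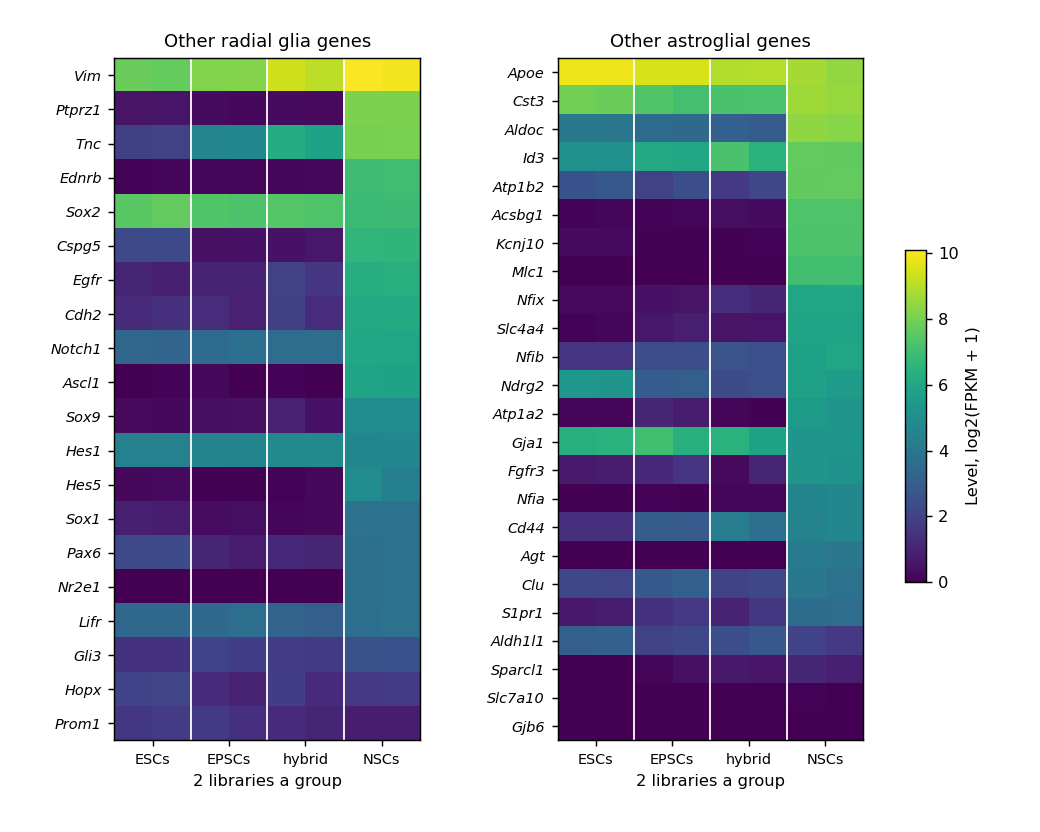
Heat map of log2(FPKM + 1) for 20 other radial glia genes (left) and 24 other astroglial genes (right), sorted by the NSC mean, with the 2 libraries of each group side by side. Most rows are bright in NSCs alone, whereas Vim, Sox2, Apoe, Cst3, and Gja1 are bright in every group, and Vim, Tnc, Id3, and Cd44 are brighter in hybrid cells than in EPSCs.

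Of 24 other astroglial genes, 21 passed the filter, and 18 of these were called lower in hybrid cells than in NSCs, 16 of them over 2-fold, compared with 42.0% and 23.9% of all genes tested. Another 3 were called higher, compared with 44.5%. After scaling to a common sum, which moved the median of all genes tested to -0.51, 19 were lower and 0 were higher. The shares above are for FPKM as deposited. Aldoc, the brain aldolase, was at 326 ± 19.0 FPKM (SD, n = 2) in NSCs and 7.10 ± 0.559 FPKM in hybrid cells. Cst3, which encodes the protease inhibitor cystatin C, was at 385 and 148 FPKM, and Id3, an inhibitor of helix-loop-helix factors, at 201 and 115 FPKM. Apoe, which encodes the lipid carrier of astrocytes, was at 385 FPKM in NSCs and 495 FPKM in hybrid cells. Its direction turned with the scaling, from 0.37 (adjusted p = 0.00381) in FPKM as deposited to -0.25 (adjusted p = 0.0191) after scaling to a common sum and -0.49 (adjusted p = 0.00118) after quantile normalization.

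Against EPSCs, 4 of the 20 radial glia genes were higher in hybrid cells and 2 were lower, and of the 21 astroglial genes, 4 were higher and 5 were lower. These shares are near or below the background of 22.5% higher and 21.9% lower. Several genes of both lists, such as Nr2e1, Mlc1, and Agt, were tested through NSCs alone. They were at or near 0 in EPSCs and hybrid cells, so the shares are a description. The changes over 2-fold were Tnc (1.37, SE 0.13, adjusted p = 0.000393), Vim (1.01, SE 0.09, adjusted p = 0.000324), and Cd44 (1.03, SE 0.17, adjusted p = 0.00310). Of all genes tested, 2.21% were called over 2-fold higher and 1.35% over 2-fold lower in this comparison. Cd44 encodes a hyaluronan receptor and was named after its value was seen. All 3 rose, and fibroblasts are also known to express all 3 genes. The fibroblast list rose in the same comparison, and its part in these 3 genes was not tested. Nes and Vim, which form filaments together, moved in opposite directions, and the ratio of Nes to Vim was 0.00368 and 0.00438 in the hybrid cell libraries and 0.0159 and 0.0144 in EPSCs.

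The genes whose levels over the 8 libraries were nearest to a marker were found by the Euclidean distance on the log2(FPKM + 1) scale. For Fabp7, these were Ptn (distance 3.90), Ptprz1 (4.78), and Gpm6b (4.93). Their NSC means of 619, 272, and 302 FPKM were below that of Fabp7. This distance depends on the level, and few genes were as high as Fabp7 in NSCs. For Slc1a3, they were Ttyh3 (1.86), Pea15a (1.98), and Atp1b2 (2.02), and for Nes, they were Ttyh1 (0.916), Rhoq (0.947), and Tspan7 (1.07). The nearest gene to Nes, Ttyh1, was at 83.1 FPKM in NSCs, 3.59 FPKM in EPSCs, and 1.77 FPKM in hybrid cells.

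The families of the markers were not restricted to NSCs. Fabp5, the paralog of Fabp7 with the highest NSC level, was at 327 ± 42.8 FPKM (SD, n = 2) in NSCs, 27.4 ± 6.05 FPKM in EPSCs, and 10.5 ± 3.76 FPKM in hybrid cells. Fabp5 thus fell from EPSCs to hybrid cells (-1.33, SE 0.23, adjusted p = 0.00357), and Fabp7 was 7.84 and 9.14 times Fabp5 in the NSC libraries. Fabp3, the heart-type family member, named after its values were seen, was at 357 FPKM in EPSCs, 447 FPKM in hybrid cells, and 0.517 FPKM in NSCs. Among 15 genes of the S100 family, S100a10 was the highest in NSCs at 164 FPKM and was at 99.0 FPKM in hybrid cells. Of 10 other aquaporins, 9 were under 1 FPKM in NSCs, and the exception, Aqp11, was at 2.15 FPKM. Aqp3, named after its values were seen, was at 56.1 FPKM in hybrid cells and at 0 in NSCs.

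Genes of glutamate and glutamine metabolism and transport were a list of 15, of which 12 passed the filter. In hybrid cells against NSCs, 5 were called higher and 5 lower as deposited, shares near those of all genes tested (44.5% and 42.0%). After scaling to a common sum, which moved the median of all genes tested to -0.51, 3 were higher and 7 lower. Glud1, glutamate dehydrogenase, was at 122 FPKM in NSCs and 103 FPKM in hybrid cells. Slc38a3, a glutamine transporter of astrocytes, was at 67.3 ± 2.23 FPKM (SD, n = 2) in NSCs and 0.286 ± 0.0430 FPKM in hybrid cells. Against EPSCs, 8 of the 12 were called lower in hybrid cells and 2 higher, compared with 21.9% and 22.5% of all genes tested. Slc38a3 was one of them (-0.63, SE 0.11, adjusted p = 0.00387), and Slc1a5, the neutral amino acid transporter of the same family as Slc1a3, named after its values were seen, was at 103 FPKM in EPSCs and 33.6 FPKM in hybrid cells (-1.59, SE 0.08, adjusted p = 7.4e-05). Of 5 genes that Musashi proteins bind or work with, 3 were called higher and 0 lower in hybrid cells than in NSCs, with 2 higher and 1 lower after scaling to a common sum, compared with 44.5% of all genes called higher and 42.0% called lower as deposited.

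Markers of other neural cells were looked for in the same libraries. In NSCs, the highest gene of a neuron list was Map2, at 182 FPKM, and 6 of the 12 genes were under 1 FPKM. The highest gene of the oligodendrocyte lineage was Olig1, at 664 FPKM, which neural progenitors also express, and 6 of 12 were under 1 FPKM. Microglia genes were under 1 FPKM for 7 of 8, with Cd68 the highest at 2.25 FPKM. Of 10 pluripotency genes, 9 were under 1 FPKM and 6 were at 0 in NSCs, whereas their summed level was 4844 to 5339 FPKM in hybrid cells. The NSC libraries had most genes of the radial glia and astroglial lists, which were chosen with earlier results of these data known. Of the 20 other radial glia genes, 1 was under 1 FPKM there, Prom1. Of the 24 other astroglial genes, 3 were under 1 FPKM there, Gjb6, Slc7a10, and Sparcl1. The NSC libraries also held high genes of other lists. The oligodendrocyte lineage list summed to 1042 to 1054 FPKM and the neuron list to 242.6 to 262.4 FPKM in NSCs.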

How the data were processed

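Poly-A libraries of 8 samples were prepared with a stranded kit. The authors trimmed the reads with skewer, used STAR 2.7.9a for alignment to mm10 and Cuffnorm (Cufflinks 2.2.1) for quantification, and deposited one FPKM value per gene and library, which is normalized for length and library. The annotation, the strand setting, and the library normalization are not given in the sources used here, and 0 columns belonged to other samples. Depth, derived from the steps of FPKM values with an assumed fragment length of 200 nucleotides, was 21.95 to 32.6 in units of 1000000 fragments per library, and fragment numbers cover counting error only.

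limma 3.58.1 in R 4.3.3 (trend, 4 groups in one fit, two-sided) was applied to log2(FPKM + 1) for the 13239 genes with a mean of at least 1 FPKM in at least 1 group, with Benjamini-Hochberg adjustment and calls at an adjusted p under 0.05. Tables were handled with Python 3.11.15 and pandas 2.3.3. The rule of the study's methods was also applied. The model was also run on simulated data, in which each gene had a base level above 1 FPKM and the same spread. That setting does not cover markers near 0 or with a wide spread. Promoters were RefSeq sequences of GRCm38.p6. The constant, the filter, the scaling (a common sum of 1000000 or quantile normalization), the choice of groups fitted together, and a replicate block were varied, and each library was left out in turn.

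The marker genes and the gene lists were chosen with earlier results of these data known. By rule, the text names every marker, up to 4 genes per list with the highest NSC mean (for other cell types the highest gene), and the 3 nearest genes of the 3 markers highest in NSCs; others are marked as named after their values were seen or are those behind a count. The comparison of hybrid cells with ESCs, the change of Glul relative to the median, and the rule with the mean over both groups were added after the data were seen.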

Additional observations from a re-analysis of the deposited data

How the results depend on the processing

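Over 60 fold changes of the markers, alternatives kept the side of the threshold in 865 cases, moved 16 past it, and took 10 below it. The sign changed in 11 cases, in 6 fold changes of Aqp4, Fabp7, Gfap, Glul, and Slc1a2 between hybrid cells and a pluripotent group, and 0 of these were called. Calls of Glul, Msi2, Slc1a3, and Msi1 changed as given above. Glul also passed in EPSCs against NSCs with 2 groups in the fit (-0.45, adjusted p = 0.0437) or without a hybrid cell library (0.0263 and 0.0249), in ESCs against NSCs with 2 groups in the fit (-0.17, adjusted p = 0.00518), and in hybrid cells against ESCs without hybrid cell library 1 (-0.78, adjusted p = 0.0102; with it -0.35, adjusted p = 0.288). Gfap passed in EPSCs against ESCs (-0.79, adjusted p = 0.0143) and hybrid cells against ESCs (-0.78, adjusted p = 0.0138) with 0.1 added, where the values rest on few fragments. Fabp7 in hybrid cells against ESCs passed with 0.1 added (0.96) and without hybrid cell library 1 (0.27). With both thresholds at 2, the rule of the methods found 1 marker between hybrid cells and EPSCs, Slc1a3, and 5.73% of all genes tested. The median position of hybrid cells lay between 1.00 and 1.01 when single libraries were left out. With a filter at 3 FPKM, Aqp4 was not tested. The replicate block changed no call of a marker: it called 9 markers against NSCs and 3 against EPSCs. Libraries that share a number shared nothing else by their labels, and the correlation of their deviations was 0.280 for hybrid cells and EPSCs and -0.02 for hybrid cells and NSCs. The block moved the calls over all genes from 5881 to 6060 for hybrid cells against EPSCs. Depth limits Fabp7, Gfap, S100b, Slc1a2, and Aqp4 outside NSCs, where 0 to 9 fragments stood behind a value of Fabp7 or Gfap.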
